A study of Mus musculus with 130 samples.

Results

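The kinesins are motor proteins that walk along microtubules or take them apart, and the mouse genome encodes them as the Kif and Kifc genes. Their members were the entries of the deposited count table whose name is Kif or Kifc followed by a number, which gave 42 of 52550 genes, and 40 of these had a mean of at least 1 CPM (counts per 1000000 counts of a library) over all libraries. Of the 40, 13 are known for mitosis and cytokinesis, 10 for transport in neurons, 8 for cilia and 9 for other transport. These classes were set from textbook knowledge, but with earlier results of these data known, so counts per class are descriptive. Kif28, with a mean of 0.245 CPM, and Kif2b, with 3 counts in all libraries together, fell below the minimum, and Kif17 at 1.16 CPM and Kif12 at 1.96 CPM were the lowest members kept. The name rule leaves out Cenpe, a kinesin of the kinetochore whose symbol does not begin with Kif.

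In dividing cells, mitotic kinesins push spindle poles apart, carry and align chromosomes, shorten microtubule ends at kinetochores, and bundle the midzone microtubules at which the cell is cut. In neurons, transport kinesins of the kinesin-1, kinesin-2 and kinesin-3 families carry vesicles, mitochondria and other cargo down axons and dendrites, through light chains and adaptor proteins. Another set works at the cilium, a microtubule organelle that grows from a centriole and is taken down before mitosis. Many mitotic genes share a promoter element, the cell cycle genes homology region, to which the MuvB complex binds, often near a CCAAT box bound by NF-Y.

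The RNA came from wild-type mouse embryos of the FVB/NJ strain with the FUCCI reporter, whose fluorescent colours follow the cell cycle. Minced whole embryos went through flow sorting into 4 gates, where the labels assign gate BR to G0, gate DR to G1, gate YE to G1-S and gate GR to S-G2-M, and unsorted cells (US) were kept beside them. There were 5 preparations, WT1 and WT2 from E10.5, WT3 from E11.5, and those titled 5 and 8 from E13.5, each giving 1 library per gate and 1 of unsorted cells, 25 in all. Whether a preparation holds 1 embryo or several pooled ones is not given, and preparations were taken as replicates. In the main tests the spread behind a p-value was estimated over all 25 libraries, including several of the same preparation. The p-values therefore do not measure the spread between preparations alone. The study compared phases and days, and the values of a gene are listed in the order WT1, WT2, WT3, 5 and 8.

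Library totals ran from 14692256 to 58492064 counts, with a median of 22852555. Mitochondrially encoded genes took 0.372% to 0.701% of counts in the WT-titled preparations and 1.66% to 3.42% in preparations 5 and 8, so the day E13.5 cannot be told apart from whatever else set these 2 preparations apart. Markers of neurons summed to 239.9 to 601 CPM in S-G2-M and to 5965 to 10219.8 CPM in G0, markers of hepatocytes reached 2114 and 1584 CPM in the G1-S libraries of E13.5, and erythroid markers summed to 11346 to 35266 CPM in unsorted cells and at most 2878 CPM in any sorted library. In bulk samples, fewer cells of a type and less RNA per cell cannot be told apart.

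The promoters of the mitotic kinesins are shown before their values because most of them hold the same short element close to the start of transcription. RefSeq windows on GRCm38.p6, from 250 bases before to 50 bases after an annotated start, were found for 32 of the 40 genes, with 36 windows in all. The 12 mitotic windows were of 12 genes and the 6 other transport windows of 6. The 10 neuronal windows were of 7 genes and the 8 cilium windows of 7, since some genes had 2 windows. Counts below are of windows. The element TTTGAA, read on both strands, lay in 11 of 12 mitotic promoters, in 1 of 10 neuronal, 1 of 8 cilium and 1 of 6 other transport promoters, and in 17.9% of all 32851 promoters of the same length. In 9 of the 12 mitotic promoters it began within the last 80 bases of the window, against 0 of 10 neuronal promoters and 3.83% of all, a stretch chosen after the positions were seen. The box CCAAT lay in 8 of 12 mitotic, 2 of 10 neuronal, 5 of 8 cilium and 1 of 6 other transport promoters, and in 37.4% of all. Those 2 neuronal windows both belong to Kif1b and overlap. An E2F site, spelled TTTCCCGC, TTTGGCGC, TTTCGCGC or TTTGCCGC, lay in 2 mitotic promoters, those of Kif15 and Kif18a, and in 2.26% of all.

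Capitals mark these 3 motifs on either strand (TTCAAA and ATTGG are the reverse complements of TTTGAA and CCAAT, and in Kif15 the E2F site and the TTTGAA element adjoin). Kif11 (chr19:37376132-37376431, plus strand) and Kif23 (chr9:61946750-61947049, minus strand) hold a CCAAT box just before the TTTGAA element, Kif15 (chr9:122950831-122951130, plus strand) joins it to an E2F site, and Kif18a (chr2:109280488-109280787, plus strand) holds the E2F site alone. Kif24 (chr4:41464799-41465098, minus strand) is a cilium kinesin with 4 CCAAT boxes, and Kif5c (chr2:49619036-49619335, plus strand) is a neuronal kinesin with none of the motifs.
Kif11: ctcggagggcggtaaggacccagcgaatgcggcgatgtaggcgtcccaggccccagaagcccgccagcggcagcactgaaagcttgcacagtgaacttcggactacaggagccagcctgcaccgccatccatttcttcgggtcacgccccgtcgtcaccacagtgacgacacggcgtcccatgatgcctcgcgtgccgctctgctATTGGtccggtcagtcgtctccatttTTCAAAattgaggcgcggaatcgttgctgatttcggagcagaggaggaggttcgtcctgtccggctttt
Kif23: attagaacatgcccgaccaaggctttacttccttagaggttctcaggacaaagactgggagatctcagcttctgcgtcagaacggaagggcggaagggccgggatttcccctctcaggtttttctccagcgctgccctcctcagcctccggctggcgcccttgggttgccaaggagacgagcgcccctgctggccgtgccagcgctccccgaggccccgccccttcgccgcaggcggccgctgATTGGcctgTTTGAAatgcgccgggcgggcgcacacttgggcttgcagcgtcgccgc
Kif15: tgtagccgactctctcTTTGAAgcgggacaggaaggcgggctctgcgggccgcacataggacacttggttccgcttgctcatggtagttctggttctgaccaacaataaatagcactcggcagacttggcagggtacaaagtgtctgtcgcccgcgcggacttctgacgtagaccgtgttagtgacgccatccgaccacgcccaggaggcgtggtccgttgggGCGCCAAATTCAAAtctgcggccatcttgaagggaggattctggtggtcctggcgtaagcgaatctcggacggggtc
Kif18a: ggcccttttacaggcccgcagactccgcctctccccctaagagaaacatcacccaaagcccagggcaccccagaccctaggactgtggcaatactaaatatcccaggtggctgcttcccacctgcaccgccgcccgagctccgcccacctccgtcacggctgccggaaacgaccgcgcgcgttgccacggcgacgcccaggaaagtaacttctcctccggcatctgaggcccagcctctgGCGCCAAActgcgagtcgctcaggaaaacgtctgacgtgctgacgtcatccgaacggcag
Kif24: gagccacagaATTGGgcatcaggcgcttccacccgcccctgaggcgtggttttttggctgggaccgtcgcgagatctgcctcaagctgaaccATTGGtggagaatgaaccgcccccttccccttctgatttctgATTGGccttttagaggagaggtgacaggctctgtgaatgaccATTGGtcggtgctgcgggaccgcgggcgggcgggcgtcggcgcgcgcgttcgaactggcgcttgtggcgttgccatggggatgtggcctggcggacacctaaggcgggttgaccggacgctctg
Kif5c: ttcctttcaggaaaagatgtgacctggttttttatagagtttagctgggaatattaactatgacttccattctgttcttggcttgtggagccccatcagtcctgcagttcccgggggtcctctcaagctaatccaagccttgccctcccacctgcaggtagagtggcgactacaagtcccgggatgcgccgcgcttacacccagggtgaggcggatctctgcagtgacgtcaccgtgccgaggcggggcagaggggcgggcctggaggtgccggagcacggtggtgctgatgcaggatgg
The first base of the TTTGAA match nearest the 3′ end of the window lay 19 bases before the start in Kif11 and Kif15, 2 bases after it in Kif23, 3 after it in Kif18b and 1 after it in Kifc1. These are matches of letters and not measured binding.

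The gate of highest mean level split the family by class. All 13 mitotic kinesins were highest in S-G2-M, in each of the 5 preparations, and all 13 were lowest in G0. All 10 neuronal kinesins were highest in G0, 8 of them in each of the 5 preparations. Kif17 is among the 10, and it met the minimum mean of 1 CPM through its G0 and G1 levels. The cilium kinesins divided into 4 highest in G0 (Kif3a, Kif3b, Kif9 and Kif19a), 1 in G1 (Kif6), 1 in G1-S (Kif27) and 2 in S-G2-M (Kif7 and Kif24). Of the other transport kinesins, Kif13b and Kif26a were highest in G0, Kif13a and Kif26b in G1, Kif12, Kif1c and Kifc3 in G1-S, and Kif5b and Kif16b in S-G2-M. These gates are of the mean over preparations. Single preparations had the same top gate in 5 of 5 for Kif3a, Kif3b, Kif9, Kif6, Kif13b and Kif26a and in 3 or 4 for Kif7, Kif24, Kif27, Kif1c and Kif5b. For Kif19a, Kif12, Kif13a, Kif26b and Kif16b it was 2 of 5 and for Kifc3 1 of 5. The top gate of Kif19a, Kif7, Kif16b, Kif5b and Kifc3 was another one without TMM scaling, that of Kif16b and Kifc3 also with RLE factors, and Kif19a was highest in G1 without WT2, WT3 or 8.

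**Figure D1:**
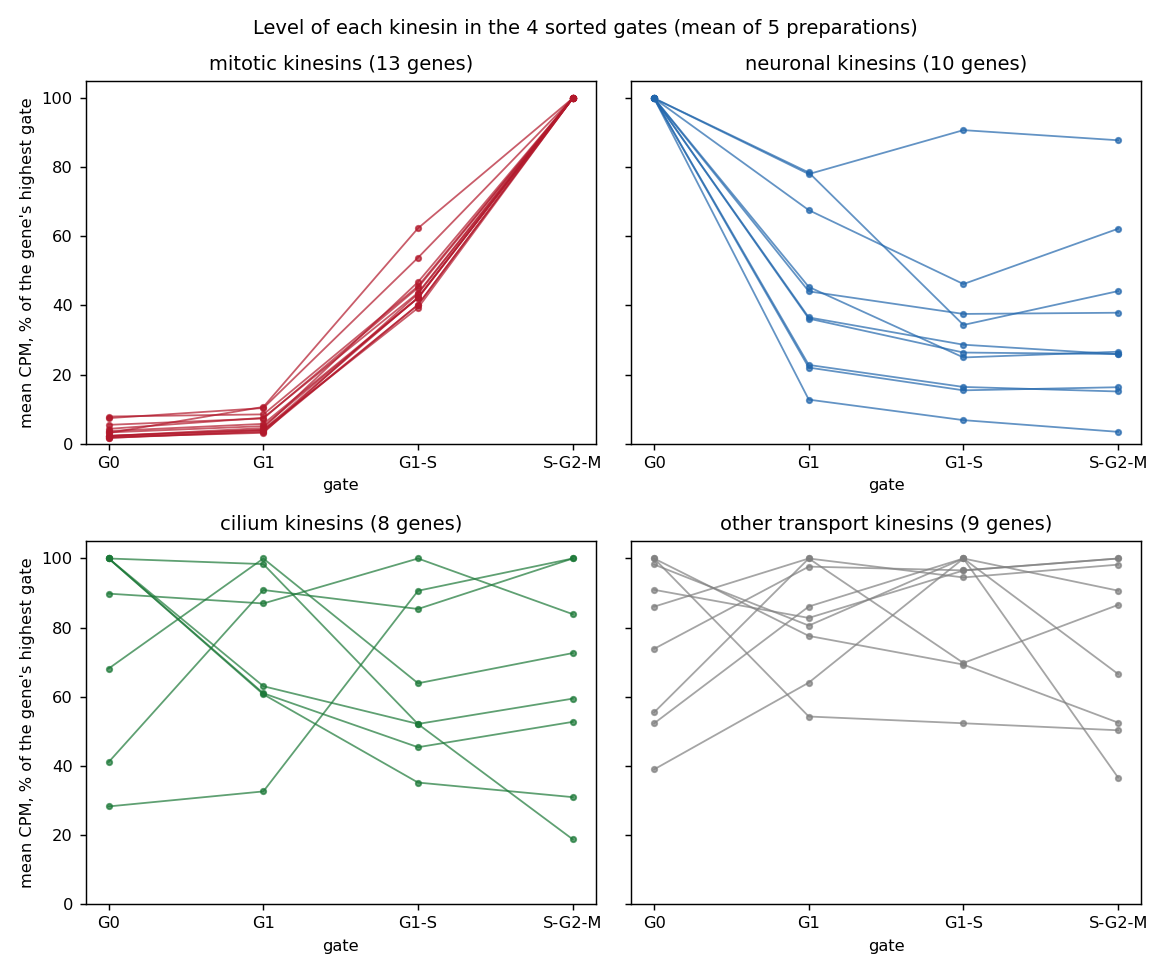
Mean CPM of each kinesin in the 4 sorted gates, as a percent of that gene's highest gate (vertical axis), 1 line per gene, in 4 panels by class (n = 5 preparations per point). The 13 mitotic genes sit at 1.62% to 7.84% in G0 and 39.3% to 62.4% in G1-S, and the 10 neuronal genes sit at 100% in G0 and 3.40% to 87.8% in S-G2-M.

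As a share of all kinesin CPM, the mitotic class took 55.2% to 57.5% in the S-G2-M libraries and 1.37% to 2.94% in the G0 libraries. The neuronal class took 19.1% to 21.6% in S-G2-M and 69.8% to 78.0% in G0. No S-G2-M library overlapped a G0 library in either share. Summed over the 13 genes, mitotic kinesins stood at 2562, 2497, 2568, 3024 and 2895 CPM in S-G2-M, and at 70.5, 103, 119, 69.9 and 70.5 CPM in G0. The 10 neuronal genes summed to 1005, 884, 868, 1005 and 1051 CPM in S-G2-M, and to 4024, 3605, 2822, 3380 and 3799 CPM in G0. The cilium class as a whole was nearly level, at 218 to 242 CPM in S-G2-M and 231 to 259 CPM in G0, and its members went in both directions.

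**Figure D2:**
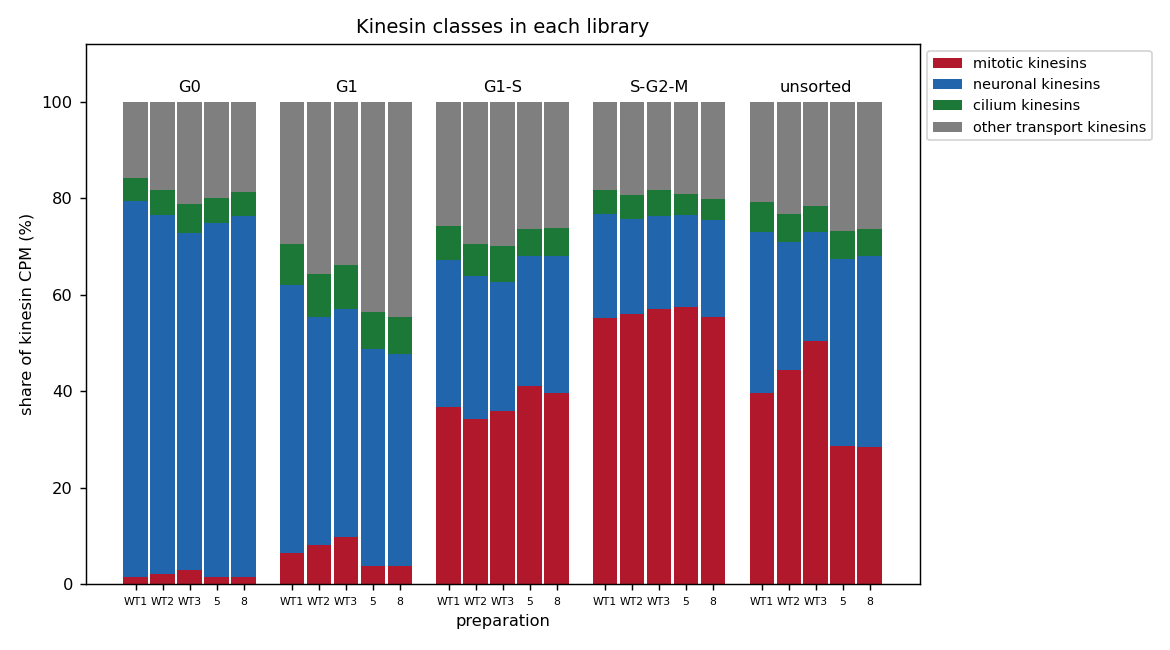
Share of all kinesin CPM (percent, stacked) taken by each class in the 25 libraries, grouped by gate, 1 bar per preparation. The mitotic share is 55.2% to 57.5% in S-G2-M and at most 2.94% in G0, and the unsorted bars of preparations 5 and 8 have a lower mitotic share than those of the 3 WT-titled preparations.

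Set per length of exon (CPM per kb of the exon union), so that genes can be compared, the S-G2-M gate was led by Kif20a at 66.0 ± 12.8, Kif11 at 61.1 ± 2.60 and Kif2c at 47.0 ± 1.51 CPM per kb (SD, n = 5). The Kif11 mean lay within 1 SD of the Kif20a mean, and 29.3% of the Kif20a exons lie under exons of the opposite strand, so its level is uncertain where the strand of counting is not given. Kif5b, the kinesin-1 heavy chain found in all tissues, came next there at 38.3 ± 5.07 CPM per kb and did not differ from Kif4 at 38.02 ± 5.75 beyond the spread. In G0, Kif5c led at 129.7 ± 28.4 CPM per kb, followed by Kif1b at 54.0 ± 9.64, Kif5a at 46.8 ± 13.1 and Kif1a at 41.2 ± 11.1. The Kif5a mean lay within 1 SD of the Kif1b and Kif1a means, which were more than 1 SD apart.

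The main phase comparison set S-G2-M cells against G0 cells, tested by edgeR's quasi-likelihood test with Benjamini-Hochberg adjustment over 23506 genes, of which 54.2% were called at an adjusted p under 0.05 (27.5% higher and 26.6% lower). Of the 40 kinesins, 19 rose, 16 fell and 5 did not pass. All 13 mitotic kinesins rose, with a median log2 change of 5.07, and 9 of 10 neuronal kinesins fell, with a median of -1.84, against a median of -0.01 over all genes tested. Of the cilium kinesins 2 rose and 4 fell (median -0.43), and of the other transport kinesins 4 rose and 3 fell (median 0.15). The 5 libraries of S-G2-M lay wholly above those of G0 for 17 kinesins and wholly below for 14, while 29.9% of all genes tested had no overlap in either direction. Tested within WT1 to WT3 alone, 33 kinesins were called, beside 11689 of 24662 genes tested. In 5 and 8 alone the count was 37, beside 11681 of 20886 genes.

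**Figure D3:**
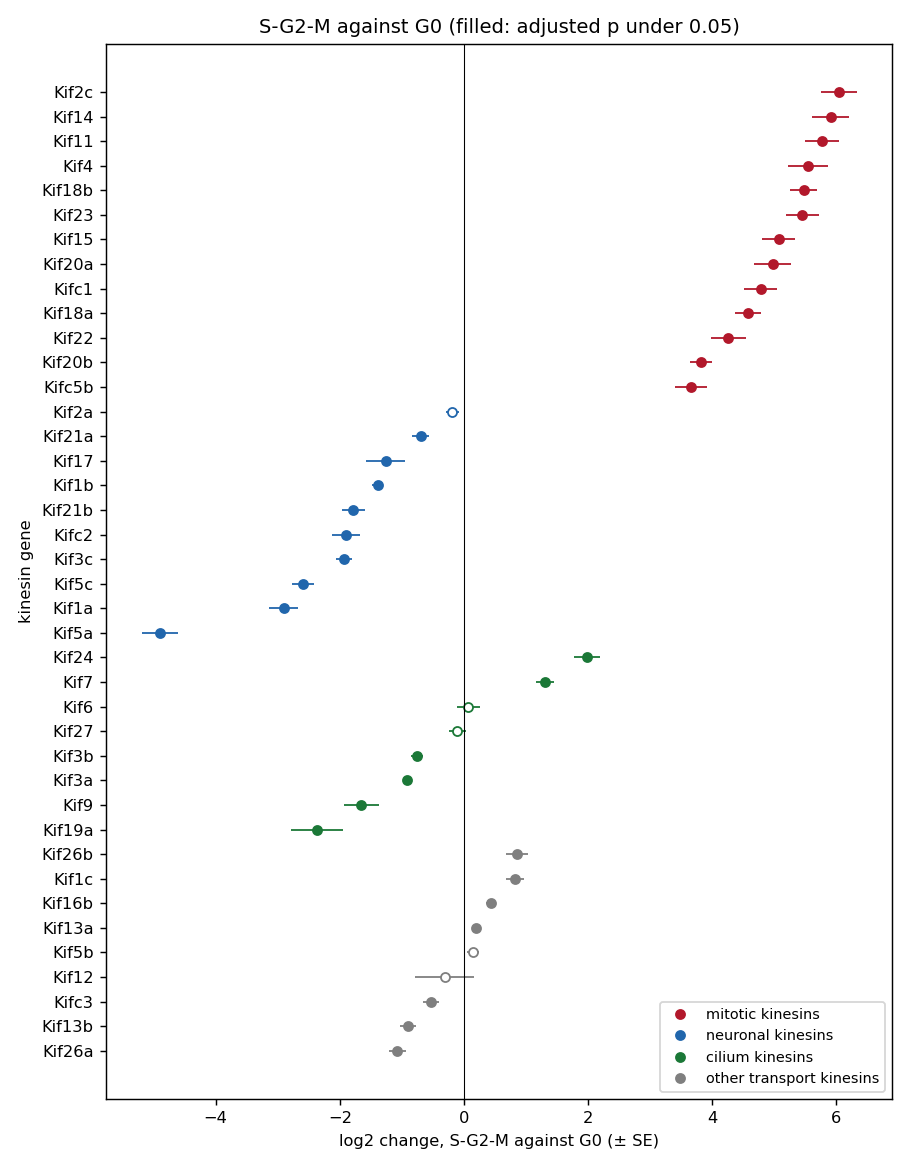
Log2 change of S-G2-M against G0 for each of the 40 kinesins (horizontal axis, ± SE), coloured by class and ordered by size within it; filled points passed the test. The mitotic genes lie between 3.66 and 6.04, the neuronal genes between -4.90 and -0.19, and Kif24 and Kif7 stand right of 0 among the cilium genes.

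All 4 motors that build and hold the bipolar spindle rose. Kif11, the tetrameric motor that slides antiparallel spindle microtubules apart, had 461, 469, 456, 469.8 and 423 CPM in S-G2-M cells, against 5.27, 9.76, 14.2, 8.09 and 5.97 CPM in G0 cells. The gates were far apart, and the S-G2-M libraries lay closer together, as a share of their mean, than the G0 libraries did (log2 change 5.77 ± 0.27, adjusted p = 9.00e-14). Kif15, which acts beside Kif11 in keeping the spindle bipolar, had 360.1, 345, 358, 351 and 333 CPM in S-G2-M cells, against 8.09, 13.9, 14.1, 8.44 and 9.29 CPM in G0 cells. It rose by less than Kif11, with no overlap of the gates (log2 change 5.07 ± 0.27, adjusted p = 5.17e-13). Kifc1, a minus-end motor that crosslinks spindle microtubules, had 103, 84.4, 89.8, 117 and 141 CPM in S-G2-M cells, against 3.91, 4.31, 5.14, 3.11 and 3.01 CPM in G0 cells (log2 change 4.78 ± 0.27, adjusted p = 9.18e-13). Kifc5b is a close copy of Kifc1, so reads could be split between them, and it rose less (log2 change 3.66 ± 0.25, adjusted p = 2.15e-11).

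Kinesins that shorten microtubule ends and align chromosomes also rose. Kif2c, the depolymerase at centromeres that corrects faulty attachments, had 196, 210.4, 212, 203 and 204 CPM in S-G2-M cells, against 1.49, 4.14, 6.08, 2.32 and 2.60 CPM in G0 cells. Its change was the highest of the 40 (log2 change 6.04 ± 0.29, adjusted p = 9.69e-14), with a ratio of means of 61.7. Kif18b, which acts at the plus ends of astral microtubules, had 95.4, 101, 95.5, 168 and 164 CPM in S-G2-M cells, against 2.41, 2.53, 3.31, 2.52 and 3.01 CPM in G0 cells. The gates did not overlap (log2 change 5.47 ± 0.22, adjusted p = 1.74e-14), and within S-G2-M its E13.5 libraries stood above the other 3. Kif18a, which dampens the movements of kinetochore microtubules, rose as well (log2 change 4.57 ± 0.21, adjusted p = 6.67e-14).

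Among the chromokinesins, which bind chromatin, Kif4 had 189, 192, 179, 245 and 243 CPM in S-G2-M cells, against 2.28, 6.23, 6.57, 3.65 and 4.36 CPM in G0 cells (log2 change 5.54 ± 0.32, adjusted p = 1.90e-12), and 15.1% of its exons lie under exons of the opposite strand. Kif22, which pushes chromosome arms away from the poles, had 143, 145, 144, 168 and 179 CPM in S-G2-M cells, against 9.04, 10.4, 11.2, 5.23 and 6.44 CPM in G0 cells (log2 change 4.26 ± 0.28, adjusted p = 1.54e-11). For both, each S-G2-M library was above each G0 library.

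The motors of the midzone and of cytokinesis rose too. Kif23, the motor of the centralspindlin complex, had 219.8, 193, 225, 316 and 295 CPM in S-G2-M cells, against 4.42, 7.71, 6.12, 4.84 and 4.93 CPM in G0 cells (log2 change 5.45 ± 0.27, adjusted p = 1.94e-13). Kif20a, which brings the chromosomal passenger complex to the midzone, had 243, 249, 247, 355 and 338 CPM in S-G2-M cells, against 10.1, 10.7, 12.5, 6.37 and 6.70 CPM in G0 cells (log2 change 4.98 ± 0.30, adjusted p = 2.60e-12). For both genes the E13.5 libraries were the highest within S-G2-M, and in G0 the E13.5 libraries of Kif20a were the lowest. Kif14, which binds the midzone bundler Prc1, had 126, 116, 124, 182 and 176 CPM in S-G2-M cells, against 1.09, 2.57, 2.81, 2.91 and 2.70 CPM in G0 cells (log2 change 5.91 ± 0.30, adjusted p = 2.54e-13). Kif20b, which acts late in cytokinesis, kept a G0 mean of 7.38% of its S-G2-M mean and rose as well (log2 change 3.82 ± 0.18, adjusted p = 8.54e-14).

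A list of 20 mitotic partners of these motors rose in full, 20 of 20, with a median log2 change of 5.07, the same to 2 decimals as that of the mitotic kinesins. The highest were Ccnb1, the mitotic cyclin, at 6.16 ± 0.34 (adjusted p = 8.73e-13) and Hmmr, a spindle assembly factor, at 6.13 ± 0.34 (adjusted p = 1.01e-12). Racgap1, the partner of Kif23 in centralspindlin, rose by 1.93 ± 0.19 (adjusted p = 5.25e-09), less than Kif23, and was chosen after its value was seen.

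In the neuronal class the largest fall was that of Kif5a, a kinesin-1 heavy chain of neurons that carries neurofilaments among its cargo. Kif5a had 8.998, 8.24, 10.05, 13.3 and 15.1 CPM in S-G2-M cells, against 444, 399, 292, 221 and 281 CPM in G0 cells (log2 change -4.90 ± 0.29, adjusted p = 2.14e-12). Kif5c, the other neuronal heavy chain, had 177, 154, 149, 128 and 148 CPM in S-G2-M cells, against 1175, 1119, 771, 771 and 795 CPM in G0 cells (log2 change -2.60 ± 0.18, adjusted p = 2.63e-11). Kif5b, the third heavy chain and the one of most cell types, had 319, 344, 340.4, 269 and 257 CPM in S-G2-M cells, against 273, 325, 349, 226 and 218 CPM in G0 cells, and its log2 change of 0.15 ± 0.09 did not pass (adjusted p = 0.189). The gates of Kif5b overlapped, and those of Kif5a and Kif5c did not.

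The kinesin-3 motor Kif1a, which carries synaptic vesicle precursors, had 35.1, 30.1, 30.8, 91.1 and 103 CPM in S-G2-M cells, against 397, 325, 247, 437 and 517 CPM in G0 cells (log2 change -2.90 ± 0.23, adjusted p = 3.27e-10). Its close relative Kif1b, which carries mitochondria and vesicle precursors, fell by less (log2 change -1.39 ± 0.09, adjusted p = 8.86e-12) and kept 324 to 412 CPM in S-G2-M. Kif3c, a kinesin-2 subunit of neurons, had 35.5, 34.4, 32.8, 64.8 and 63.5 CPM in S-G2-M cells, against 147, 127, 111, 237 and 271 CPM in G0 cells (log2 change -1.93 ± 0.13, adjusted p = 1.19e-11); 40.7% of its exons lie under exons of the opposite strand. Kif21b, a kinesin-4 motor of dendrites and axons, had 98.4, 97.6, 94.4, 135 and 138 CPM in S-G2-M cells, against 361, 236, 177, 625 and 773 CPM in G0 cells (log2 change -1.78 ± 0.18, adjusted p = 1.28e-08). Its paralog Kif21a fell by less (log2 change -0.70 ± 0.13, adjusted p = 9.32e-05), and the gates did not overlap for either gene.

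The lower members of the neuronal class were Kifc2 and Kif17. Kifc2, a minus-end motor of neurons, had 1.45, 1.67, 1.71, 4.60 and 5.21 CPM in S-G2-M cells, against 8.05, 4.97, 4.82, 16.9 and 20.4 CPM in G0 cells (log2 change -1.90 ± 0.23, adjusted p = 1.65e-07). Its gates overlapped across days, with the E13.5 libraries higher than those of the earlier days in both gates, and within each preparation G0 was higher. Kif17, a dendritic motor known for carrying NMDA receptor subunits, had at most 2.14 CPM in G0 and 0.441 to 1.12 CPM in S-G2-M, and fell (log2 change -1.26 ± 0.31, adjusted p = 0.00147). It met the minimum mean of 1 CPM through its G0 and G1 levels, so its place in the class counts is not independent of them. Kif2a, a relative of Kif2c that prunes axon branches and also acts at spindle poles, was the 1 neuronal member that did not pass, at a log2 change of -0.19 ± 0.11 (adjusted p = 0.156).

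Most genes that serve these motors fell too. Of 20 cargo adaptors and kinesin light chains, 17 fell and 3 did not pass, with a median log2 change of -0.997. The largest falls were those of Mapk8ip2, a JNK scaffold that binds kinesin light chains, at -2.80 ± 0.20 (adjusted p = 4.50e-11) and Clstn2, a calsyntenin, at -2.79 ± 0.31 (adjusted p = 6.46e-08). Of 18 genes of dynein and dynactin, the minus-end motor complex, 11 fell and 2 rose, with a median of -0.50. Dctn1 and Dync1li1 fell by 1.10 ± 0.13 (adjusted p = 2.20e-07) and 1.05 ± 0.10 (adjusted p = 2.30e-09) on the log2 scale, while Nde1, which acts with dynein at the spindle and in neural progenitors, rose by 3.03 ± 0.18 (adjusted p = 2.66e-12) and Dynll1 rose by 0.40 ± 0.13 (adjusted p = 0.0102).

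The marker lists moved with the gates. All 14 neuron markers fell in S-G2-M against G0, with a median log2 change of -4.45, and 7 of 8 neural progenitor markers rose, with a median of 1.54. The neuron markers with the largest falls were Ina at -6.93 ± 0.60 (adjusted p = 1.91e-09) and Stmn2 at -6.09 ± 0.45 (adjusted p = 1.08e-10), and the progenitor markers with the largest rises were Hes5 at 3.32 ± 0.32 (adjusted p = 6.60e-09) and Sox2 at 2.03 ± 0.25 (adjusted p = 3.35e-07). No neuron marker was at 0 in any S-G2-M or G0 library. Neural progenitor markers summed to 1670.0 to 2035 CPM in S-G2-M and 839.7 to 1271 CPM in G0. Of 8 mesenchyme markers 4 rose and 1 fell, of 8 hepatocyte markers 1 rose and 1 fell, of 8 macrophage markers 1 rose and 1 fell, and 4 of 6 ciliated cell markers fell. No erythroid marker of 8 passed edgeR's test, while 1 had an unadjusted p under 0.05 and 1 was called by DESeq2. The part of the cell types in the kinesin changes was not tested.

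The cilium kinesins did not move as a group. Kif3a and Kif3b, the motor subunits of intraflagellar transport, fell by 0.91 ± 0.07 (adjusted p = 1.63e-10) and 0.75 ± 0.10 (adjusted p = 6.85e-07) on the log2 scale. Kif19a, which trims the length of motile cilia, had 3.64, 3.22, 3.22, 4.17 and 5.65 CPM in S-G2-M cells, against 28.7, 31.9, 25.6, 8.54 and 11.8 CPM in G0 cells (log2 change -2.36 ± 0.42, adjusted p = 3.95e-05). The G0 libraries of E13.5 were well below those of the earlier days, though still above every S-G2-M library. Kif9, a motor of the central pair of motile cilia, had 2.11, 1.41, 1.46, 1.39 and 0.435 CPM in S-G2-M cells, against 5.44, 5.49, 6.17, 2.22 and 2.70 CPM in G0 cells (log2 change -1.65 ± 0.28, adjusted p = 2.12e-05). Markers of ciliated cells summed to 15.3 to 21.3 CPM in S-G2-M and 42.5 to 71.6 CPM in G0, and their part was not tested.

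Kif24 and Kif7 went the other way. Kif24, which shortens centriolar microtubules and holds back the outgrowth of cilia, had 73.5, 63.5, 71.9, 72.6 and 72.9 CPM in S-G2-M cells, against 27.9, 26.8, 26.5, 9.57 and 9.03 CPM in G0 cells (log2 change 1.98 ± 0.21, adjusted p = 2.24e-08). S-G2-M was nearly level over the 5 preparations, and in G0 the E13.5 libraries stood at about 9 CPM. Kif7, which works at the cilium tip in Hedgehog signalling, had 49.2, 47.8, 52.03, 48.8 and 53.7 CPM in S-G2-M cells, against 13.01, 16.04, 19.9, 24.4 and 29.9 CPM in G0 cells (log2 change 1.30 ± 0.15, adjusted p = 7.04e-08), and 20.3% of its exons lie under exons of the opposite strand. Every G0 library of Kif7 lay below every library of the other gates. Kif27, a paralog of Kif7, had 7.26, 6.70, 9.87, 7.86 and 7.60 CPM in S-G2-M cells, against 8.19, 8.93, 9.87, 7.55 and 7.53 CPM in G0 cells, and did not pass (log2 change -0.11 ± 0.13, adjusted p = 0.52). Kif6, which is linked to motile cilia, had 4.41, 4.65, 4.73, 2.78 and 3.26 CPM in S-G2-M cells, against 2.92, 4.92, 4.42, 2.81 and 3.53 CPM in G0 cells, and did not pass either (log2 change 0.07 ± 0.19, adjusted p = 0.777). The gates overlapped for both.

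**Figure D4:**
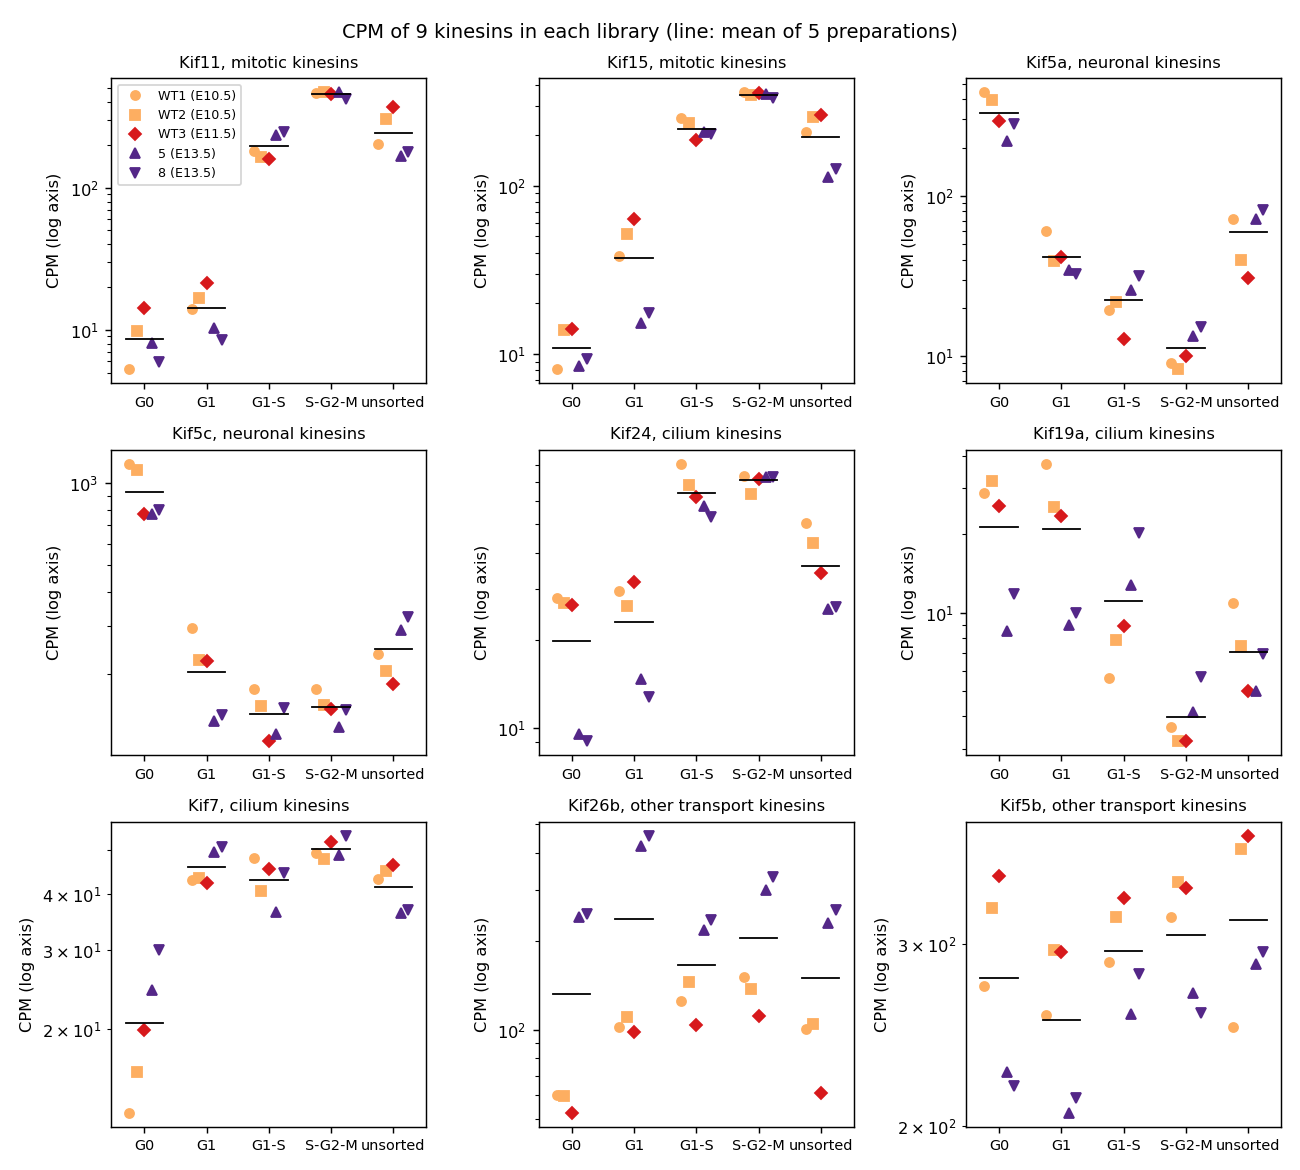
CPM (log axis) of 9 kinesins in each of the 25 libraries, by gate, with preparations as symbols coloured by day and a line at the mean of 5 preparations. Kif24 stands at 63.5 to 73.5 CPM in S-G2-M and 9.03 to 27.9 CPM in G0, and Kif5b at 257 to 344 CPM in S-G2-M and 218 to 349 CPM in G0.

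Of the other transport kinesins, Kif26a and Kif13b fell and Kif26b, Kif1c and Kif16b rose. Kif26a, an atypical kinesin without motor activity, had 39.6, 48.1, 42.5, 90.6 and 95.8 CPM in S-G2-M cells, against 123, 115, 109, 133 and 150.4 CPM in G0 cells (log2 change -1.08 ± 0.14, adjusted p = 5.14e-07). Its paralog Kif26b had 151, 138, 112, 299.9 and 330.5 CPM in S-G2-M cells, against 60.03, 59.8, 52.2, 241 and 247 CPM in G0 cells, with wide gaps between the days (log2 change 0.86 ± 0.17, adjusted p = 1.81e-04). By its mean Kif26b was highest in G1, at 102, 111, 98.3, 423 and 457 CPM, which held within preparations 5 and 8, while in WT1, WT2 and WT3 its S-G2-M value was above its G1 value. The paralogs moved in opposite directions, each past the test. Kif13b, a kinesin-3 motor, had 85.7, 69.4, 72.9, 77.8 and 77.6 CPM in S-G2-M cells, against 188, 176, 160.03, 107 and 99.5 CPM in G0 cells (log2 change -0.90 ± 0.13, adjusted p = 2.33e-06). Its paralog Kif13a had 99.2, 93.1, 94.7, 102 and 111 CPM in S-G2-M cells, against 89.3, 94.5, 81.4, 83.4 and 89.2 CPM in G0 cells, a small change (log2 change 0.19 ± 0.07, adjusted p = 0.0226). The Kif13a call was lost without preparation WT1, 5 or 8 (adjusted p = 0.0521 to 0.196), within the WT-titled preparations (0.586) and under 4 other settings (adjusted p = 0.0562 to 0.235).

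Kif1c, a kinesin-3 motor of vesicles, had 91.9, 107, 103, 102 and 105 CPM in S-G2-M cells, against 34.2, 63.2, 49.4, 71.2 and 75.2 CPM in G0 cells (log2 change 0.82 ± 0.14, adjusted p = 2.42e-05), and stood highest in G1-S at 112 ± 15.8 CPM (SD, n = 5). Kif16b, which moves early endosomes, rose by 0.44 ± 0.08 (adjusted p = 5.75e-05). Kifc3, a minus-end motor of cell junctions, had 7.80, 8.66, 9.89, 12.2 and 17.1 CPM in S-G2-M cells, against 10.9, 12.9, 11.7, 22.3 and 24.3 CPM in G0 cells, and fell (log2 change -0.53 ± 0.13, adjusted p = 0.00155), with gates that overlapped across days and 27.5% of its exons under exons of the opposite strand. Within the WT-titled preparations the Kifc3 fall did not pass (adjusted p = 0.0592). Kif12 had 0.940, 0.683, 0.492, 1.92 and 2.10 CPM in S-G2-M cells and 1.09, 1.09, 1.52, 1.28 and 1.56 CPM in G0 cells and did not pass (log2 change -0.31 ± 0.48, adjusted p = 0.612). Its highest values were 6.75 and 6.81 CPM in the E13.5 G1-S libraries, which also held 2114 and 1584 CPM of hepatocyte markers, and their part was not tested.

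Step by step along the gates, the mitotic kinesins changed most between G1 and G1-S on the log2 scale. Their summed means were 158 CPM in G1, 1249 in G1-S and 2709 in S-G2-M, so in CPM the last step was the larger. In G1 against G0, 10 of 13 mitotic kinesins rose and 9 of 10 neuronal kinesins fell, among 16 kinesins that rose and 14 that fell, where 18.2% of all genes tested rose and 18.1% fell. Kif15 had the largest early rise, with 38.01, 51.4, 63.3, 15.3 and 17.5 CPM in G1 cells, against 8.09, 13.9, 14.1, 8.44 and 9.29 CPM in G0 cells (log2 change 1.69 ± 0.24, adjusted p = 7.07e-06). The E13.5 libraries of Kif15 in G1 were below those of the earlier days but above every G0 library. Kif5a had 60.6, 38.9, 41.5, 34.6 and 32.7 CPM in G1 cells, against 221 to 444 CPM in G0 cells (log2 change -2.97 ± 0.26, adjusted p = 1.27e-08), so the ratio of G0 to G1 means was 7.85 for Kif5a, 4.54 for Kif5c and 4.39 for Kif1a. In WT1 to WT3 alone, 26 kinesins were called, beside 6448 of 24662 genes tested. In 5 and 8 alone the count was 25, beside 9029 of 20886 genes. Without WT1, 10 kinesins rose. Of the 30 calls, 20 held without each preparation in turn; those of Kif11, Kif13a, Kif13b, Kif20b, Kif23, Kif2a, Kif4, Kif6, Kif9 and Kifc1 were lost without at least 1, at adjusted p up to 0.198. With preparation as a block, the Kifc1 rise in this step did not pass (adjusted p = 0.0501).

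In G1-S against G1, all 13 mitotic kinesins rose, with a median log2 change of 3.10, and Kif24 rose with them (log2 change 1.55 ± 0.20, adjusted p = 5.67e-06). Together 14 kinesins rose and 8 fell, against 11.7% and 7.18% of all genes tested. The count of calls was 23 in WT1 to WT3 alone, beside 2179 of 24662 genes tested. It was 25 in 5 and 8 alone, where far more of all genes were called, 8478 of 20886. The count of falls moved with the scaling, to 13 beside 14 rises with RLE factors, with DESeq2 and without Gm26917 and Gm42418, and it was 4 without WT1 or without 5. Kif11 had 181, 165, 159, 237 and 246 CPM in G1-S cells, against 14.05, 16.8, 21.5, 10.2 and 8.49 CPM in G1 cells, with the largest change of the family (log2 change 3.88 ± 0.25, adjusted p = 9.37e-11). The falls in this step were smaller and covered 6 of 10 neuronal kinesins (9 with DESeq2), with Kif3a and Kif6. Kif6 had 4.77, 4.28, 4.03, 2.05 and 2.32 CPM in G1-S cells, against 6.89, 5.31, 6.04, 4.54 and 4.54 CPM in G1 cells, where it was highest (log2 change -0.70 ± 0.19, adjusted p = 0.0116). The calls of Kif17, Kif1a, Kif3c, Kif5a, Kif5c and Kif6 were lost without at least 1 preparation, at adjusted p up to 0.179. Within the WT-titled preparations those of Kif6 and Kif17 were lost (adjusted p = 0.254 and 0.21). Within preparations 5 and 8 the falls of Kif1a, Kif5a, Kif5c and Kif21a did not pass (adjusted p = 0.282, 0.112, 0.603 and 0.102).

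In S-G2-M against G1-S, the 13 mitotic kinesins rose again, with a median of 1.19. They were part of 15 kinesins that rose and 4 that fell, against 7.28% and 10.1% of all genes tested. There were 16 calls in WT1 to WT3 alone, beside 2564 of 24662 genes tested, and 23 in 5 and 8 alone, beside 4914 of 20886. Without WT2 there were 2 falls. Kif15 rose the least of the mitotic class, with 360.1, 345, 358, 351 and 333 CPM in S-G2-M cells, against 252, 238, 188, 208 and 204 CPM in G1-S cells (log2 change 0.68 ± 0.22, adjusted p = 0.0373). The Kif15 call was lost without any 1 of the 5 preparations (adjusted p = 0.0533 to 0.102) and within the WT-titled preparations. Its G1-S level was 52.5% to 70.0% of its S-G2-M level within a preparation, against 26.7% to 49.8% for Kif23, and the means were 62.4% for Kif15 and 39.3% to 53.8% for the other mitotic kinesins. Kif24 had 80.5, 68.2, 61.97, 57.6 and 52.9 CPM in G1-S cells, with a mean at 90.7% of its S-G2-M mean. The Kif24 change of 0.19 ± 0.20 did not pass (adjusted p = 0.585). Its G1-S level was above its S-G2-M level in WT1 and WT2, and 79.4% and 72.5% of it in 5 and 8. Tested within preparations 5 and 8 alone, Kif24 rose (log2 change 0.41, adjusted p = 0.00577). Kif5a fell again (log2 change -0.98 ± 0.25, adjusted p = 0.01), a call lost without WT2 (adjusted p = 0.0529), and Kif19a fell by 1.55 ± 0.41 (adjusted p = 0.0108). The calls of Kif13b, Kif21a and Kif3a were lost without at least 1 preparation, at adjusted p up to 0.178.

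Between days, E13.5 was set against E10.5 with 2 preparations each, and the day cannot be told apart from the preparations. The spread in these tests was drawn from all gates of the same preparations. The p-values therefore do not rest on the spread between the preparations of a day alone. In unsorted cells, 9 kinesins rose and 9 fell (14 fell without WT1), where 25.2% of all genes tested rose and 28.7% fell. Of the 13 mitotic kinesins 7 fell and 6 did not pass (median -0.55), and of the 10 neuronal kinesins 5 rose and 5 did not pass (median 0.50), against a median of -0.08 over all genes. Summed mitotic kinesins were 1023 and 1068 CPM at E13.5 and 1367 and 1660 CPM at E10.5 in unsorted cells, and the single E11.5 library was higher still, at 1867 CPM. Erythroid markers summed to 30488 and 35266 CPM in the E13.5 unsorted libraries and 22467 and 11346 CPM in those of E10.5, and their part was not tested. The calls of Kif11, Kif2c, Kif3a, Kif5c, Kif6 and Kifc1 were lost without at least 1 preparation, at adjusted p up to 0.305.

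Within S-G2-M some mitotic genes rose. There 14 kinesins rose, where 18.9% of all genes tested rose and 24.1% fell; edgeR called 0 kinesins lower, DESeq2 called 0, and 2 had a lower value at an unadjusted p under 0.05. Without WT1, WT2 or 5, edgeR called 2, 4 and 1 lower. Of the 13 mitotic kinesins 6 rose (median 0.35). Kif18b had 168 and 164 CPM at E13.5, against 95.4 and 101 CPM at E10.5 (log2 change 0.76 ± 0.11, adjusted p = 3.63e-05). Kif15 had 351 and 333 CPM at E13.5, against 360.1 and 345 CPM at E10.5, and did not pass (log2 change -0.04 ± 0.18, adjusted p = 0.865), while in unsorted cells it fell (log2 change -0.96 ± 0.18, adjusted p = 3.21e-04). Summed mitotic kinesins in S-G2-M were 3024 and 2895 CPM at E13.5, against 2562 and 2497 CPM at E10.5. Without preparation 5 or 8, 1 E13.5 library was left in S-G2-M. Calls then became fewer among the kinesins and over all genes tested. Those of Kif12, Kif14, Kif20a, Kif23, Kif5a, Kifc1, Kifc3 and Kifc5b were lost in at least 1 of these fits.

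In G0 cells, 7 kinesins were higher and 11 lower at E13.5 against E10.5, where 20.4% of all genes tested rose and 22.5% fell, and the neuronal class split into 3 that rose and 3 that fell. Kif21b had 625 and 773 CPM at E13.5, against 361 and 236 CPM at E10.5 (log2 change 1.23 ± 0.19, adjusted p = 6.54e-05), and Kif3c and Kifc2 rose with it. Kif5a had 221 and 281 CPM at E13.5, against 444 and 399 CPM at E10.5 (log2 change -0.75 ± 0.23, adjusted p = 0.0146), and Kif5c and Kif1b fell with it. The neuron markers of the same libraries summed to 5965 and 6268 CPM at E13.5 and 10219.8 and 8721 CPM at E10.5, with 2 of 14 higher and 6 lower by the test, and their part was not tested. The falls of Kif5a, Kif5c and Kif1b were lost without preparation 5 or 8, at adjusted p of 0.0674 to 0.234, and the kinesins that fell were 5 without preparation 5, 4 without 8 and 17 without WT1. Those that rose were 12 without WT2, and without preparation 8 the count of calls was 10. Those of Kif20a, Kif20b, Kif3a, Kif5b and Kif9 were also lost without at least 1 preparation, at adjusted p up to 0.319.

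Kif26b, which is known from kidney development, had the largest change between days in G0. It had 241 and 247 CPM at E13.5, against 60.0 and 59.8 CPM at E10.5 (log2 change 2.03 ± 0.11, adjusted p = 5.98e-10). It also rose in unsorted cells (log2 change 1.24 ± 0.11, adjusted p = 1.29e-07) and in S-G2-M (log2 change 1.13 ± 0.11, adjusted p = 4.93e-07). Mesenchyme markers in G0 summed to 6336 and 5537 CPM at E13.5 and 576 and 1431 CPM at E10.5, with 8 of 8 higher by the test, and their part in the Kif26b change was not tested. Kif24 and Kif19a fell in G0 (log2 change -1.56 ± 0.13, adjusted p = 1.09e-07 for Kif24 and log2 change -1.57 ± 0.27, adjusted p = 1.86e-04 for Kif19a), and Kif7 rose (log2 change 0.91 ± 0.14, adjusted p = 5.97e-05).

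**Figure D5:**
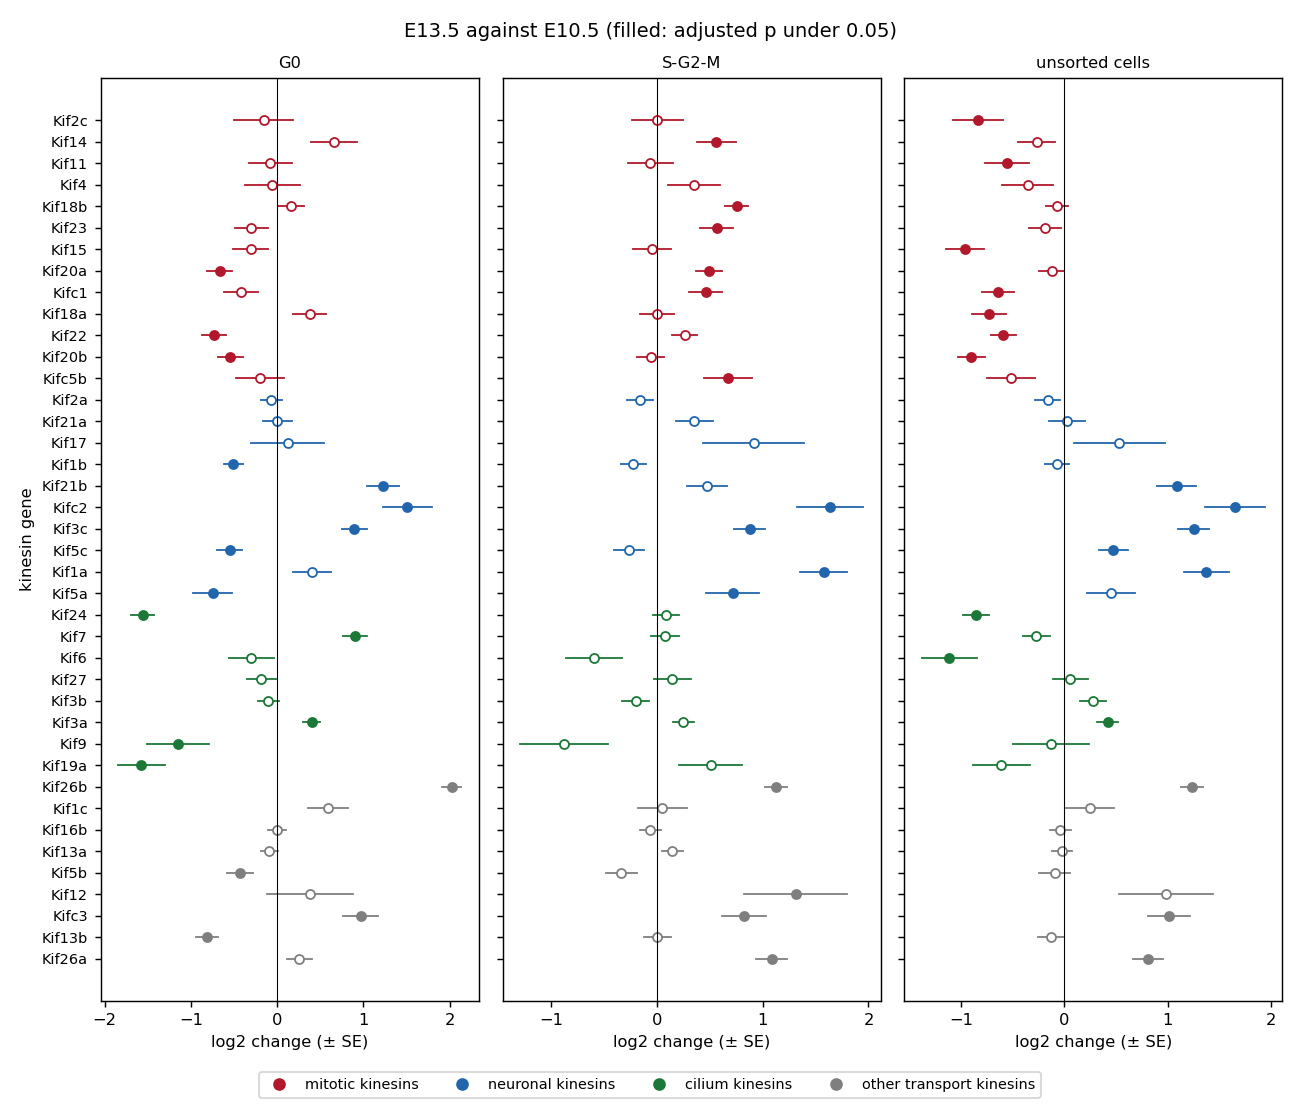
Log2 change of E13.5 against E10.5 for each of the 40 kinesins (horizontal axis, ± SE) in G0, in S-G2-M and in unsorted cells, coloured by class; filled points passed the test (2 preparations per day). In unsorted cells 7 mitotic genes are filled left of 0, in S-G2-M 6 are filled right of 0, and Kif26b is right of 0 in all 3 panels.

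Whether the phase change itself differed between the days was tested as the change of S-G2-M against G0 at E13.5 minus that at E10.5. It passed for 12 kinesins, 8.65% of all genes doing so, and was higher at E13.5 for 10 and lower for 2, against 4.23% and 4.42% of all genes. The 10 were Kif19a, Kif24, Kif5a, Kif1a, Kif20a, Kif22, Kifc1, Kif23, Kif26a and Kif13b, and the 2 were Kif26b and Kif7. A higher value at E13.5 was a larger rise for Kif24, Kif20a, Kif22, Kifc1 and Kif23. It was a smaller fall for Kif19a, Kif5a, Kif1a, Kif26a and Kif13b. For Kif26b and Kif7 the lower value was a smaller rise. The log2 change of Kif19a was -1.03 and -1.05 in the E13.5 preparations and -2.97 and -3.30 in those of E10.5. For Kif24 the difference was 1.64 ± 0.18 (adjusted p = 1.56e-05): its S-G2-M against G0 change was 2.92 and 3.01 in the E13.5 preparations and 1.40 and 1.24 in those of E10.5, on the log2 scale. For Kif20a the E13.5 values were 5.80 and 5.65, and the E10.5 values were 4.59 and 4.54 (log2 change 1.16 ± 0.18, adjusted p = 5.57e-04). Without preparation 5 or 8, the single E13.5 library left per gate was assumed to vary like the other groups. The difference was then 2.11 and 2.08 for Kif19a and 1.12 and 1.21 for Kif20a. Kif24 alone kept its call in both fits, and calls over all genes tested became far fewer too. Without WT1, calls became more frequent among the kinesins and over all genes tested.

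By the day of highest mean level over the 4 gates, 10 of 13 mitotic kinesins were highest at E13.5 (Kif20b and Kif2c at E11.5 and Kif15 at E10.5). Of all 40 kinesins 25 were, and the share of all genes was not computed. This mean is weighted to the gates of high CPM: Kif20a and Kif22 were lowest at E13.5 in G0 and G1. By test against E10.5, 6 of 13 mitotic kinesins rose in S-G2-M and 3 fell in G0. In unsorted cells 10 of 13 were highest in the single E11.5 library and 0 at E13.5. Of the neuronal kinesins, Kif1a, Kif17, Kif21a, Kif21b, Kif3c and Kifc2 were highest at E13.5 over the gates, and Kif1b, Kif2a, Kif5a and Kif5c at E10.5. Of the cilium kinesins, Kif19a, Kif24 and Kif9 were highest at E10.5, Kif27, Kif3b and Kif6 at E11.5, and Kif3a and Kif7 at E13.5. Of the other transport kinesins, Kif13b was highest at E10.5, Kif5b at E11.5, and Kif12, Kif13a, Kif16b, Kif1c, Kif26a, Kif26b and Kifc3 at E13.5. E11.5 had 1 preparation and was not tested.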

How the data were processed

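The deposited file holds raw read counts per gene in 130 columns, made by the authors with STAR 2.5.3 and HTSeq 0.8.0 on mm10 according to the submitters' processing notes, which give no annotation or strand setting. Columns of 1 preparation and gate were summed, giving 25 libraries. Their names differ in the lane ending, and in WT3 also in the S number before it. They were summed because their index of dispersion was 1.09 to 1.23, against 5.88 to 118 between preparations. Tests used edgeR 4.0.16 in R 4.3.3 (filterByExpr with minimum count 10 and minimum total 15, TMM, robust quasi-likelihood F test, Benjamini-Hochberg adjustment over 23506 genes, threshold 0.05). Phase comparisons had fraction and day as terms and none for preparation, so their spread also holds day differences that vary by gate. Day comparisons had a mean for each day and fraction, with a spread shared by all fractions. An SE is the size of a log2 change over the root of its F statistic. CPM uses the TMM-adjusted total. Exon lengths and overlaps are from GENCODE M21. The tests were tried on simulated counts drawn independently for each library. That trial held no deviation shared by the fractions of a preparation, so it cannot speak to it. Alternatives were RLE factors, DESeq2 1.42.0, no filter, 2 abundant genes left out, a replicate block, and preparations left out. Fractions of a preparation deviate together (over 11129 genes, correlations were 0.317 to 0.664 in E13.5 libraries and 0.118 to 0.743 in E10.5 libraries), the pairing coming from the title prefix. Every member was named, and full values went to the 8 highest and 8 lowest changes of S-G2-M against G0, to members highest in G1 or G1-S, to those against the majority of their list, and to those whose phase change differed between days; other values were chosen after being seen. The members and lists were chosen with earlier results of these data known.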

Additional observations from a re-analysis of the deposited data

Results flagged for a closer look

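In 8 of 200 groups of 5 libraries (40 kinesins in 5 gates), 1 library stood apart from the other 4 by Dixon's criterion, which chance meets in about 1 of 20 groups. In S-G2-M, Kif24 had its lowest library in WT2 at 63.5 CPM (others 71.9 to 73.5), Kif9 in preparation 8 at 0.435 CPM (1.39 to 2.11) and Kif16b in preparation 5 at 48.6 CPM (52.1 to 53.4). In G1-S, Kif3b had its highest library in preparation 8 at 41.8 CPM (32.4 to 33.8) and Kif20b in WT1 at 138 CPM (118 to 119). WT1 also held the lowest Kif14 library in G0, at 1.09 CPM (2.57 to 2.91), the highest Kif21a library in G1, at 197 CPM (125 to 135), and the lowest Kif1c library in unsorted cells, at 78.3 CPM (109 to 113).

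The S-G2-M against G0 log2 change at E13.5 minus that at E10.5 passed edgeR's test for 12 kinesins, on 2 preparations a day. The difference was 2.08 for Kif19a (adjusted p = 0.00297), 1.64 for Kif24 (1.56e-05), 1.47 for Kif5a (0.0124), 1.17 for Kif1a (0.025), 1.16 for Kif20a (0.000557) and 1.003 for Kif22 (0.00181). It was 0.88 for Kifc1 (0.036), 0.86 for Kif23 (0.0347), 0.83 for Kif26a (0.0162) and 0.82 for Kif13b (0.00763). For Kif26b it was -0.90 (0.000857) and for Kif7 -0.82 (0.0115). The positive differences of Kif19a, Kif5a, Kif1a, Kif26a and Kif13b were smaller falls at E13.5. The day and the preparations cannot be told apart.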

How the results depend on the processing

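Of the counts and sums, 96 alternative values stayed within the set bounds and 6 did not, which all came from leaving out 1 preparation. In these 6 the calls over all genes tested moved in the same direction as those of the kinesins. Without 1 preparation the kinesins called for E13.5 against E10.5 were 10 to 26 in G0 and 6 to 21 in S-G2-M, and for the day difference of S-G2-M against G0 they were 1 to 19, where a day left with 1 library is assumed to vary like the other groups. Among the calls named and all kinesins in S-G2-M against G0, 1908 alternative values were computed, of which 162 lost the call, 2 gained it (Kif2a and Kif5b in S-G2-M against G0 within preparations 5 and 8) and 0 reversed. Kinesins not called in a comparison passed in 143 of 1551 alternative values, 37 of them in G1-S against G1. For some of these kinesins the direction differed between settings. In G1-S against G1, Kif19a had log2 changes of -1.94 within the WT-titled preparations and 0.75 within 5 and 8. In S-G2-M against G1-S, Kif26a had -0.47 and 0.31. For E13.5 against E10.5 in G0, Kif2c and Kif4 had -0.77 and -0.65 without WT1 and 0.69 and 0.78 without WT2. With preparation as a replicate block, 35 kinesins were called in S-G2-M against G0, 29 in G1 against G0, 25 in G1-S against G1 and 19 in S-G2-M against G1-S, and Kifc1 in G1 against G0 was the call it removed. No paired analysis was possible for the day comparisons because each preparation has 1 day. RLE factors moved the median of all genes to -0.17 for E13.5 against E10.5 in unsorted cells, against -0.08 with TMM. With a minimum mean of 0.5 CPM the members were 40 and with 2 CPM 38. Kif17 and Kif12, at means of 1.16 and 1.96 CPM, are the lowest members and rest on the fewest counts.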
